A study of Mus musculus with 11 samples.

Results

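Extracellular adenosine is made from ATP that stressed or dying cells release. CD39, encoded by Entpd1, removes phosphates from ATP and ADP to give AMP, and CD73, encoded by Nt5e, turns AMP into adenosine. Adenosine acts on T cells, neutrophils and macrophages through the A2A receptor, encoded by Adora2a, which raises cyclic AMP and dampens their activation, and it is removed by adenosine deaminase, encoded by Ada, which converts it to inosine. CD26, encoded by Dpp4, is a surface protease that trims the N terminus of chemokines and, in humans, holds adenosine deaminase at the cell surface. In the lung, CD39 and CD73 are known on endothelium and leukocytes, and mice without adenosine deaminase accumulate adenosine and develop lung inflammation.

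These 5 genes, which make, remove or sense adenosine or are tied to its removal, were chosen by name among the 770 genes of an nCounter panel, a method that counts color-coded probes on RNA without amplification, and all 5 were found. On day 0, BALB/c female mice aged 8 weeks were given 4T1-luc2 cells in the mammary fat pad, a metastatic mammary carcinoma line that carries luciferase, and the tumors were resected on day 13. Between day 7 and day 28 the mice received 1 mg/kg, 3 doses in each week, of antiChemR23, an agonist antibody to the chemerin and resolvin E1 receptor ChemR23, or of the control antibody hIgG1. The labels give 5 hIgG1 mice (mice 3, 4, 6, 7 and 8) and 6 antiChemR23 mice (mice 9, 10, 13, 14, 15 and 16), with 1 lung sample each, whereas the design text of the series gives 4 and 7. Lungs were digested into single cells before RNA extraction, and by the methods they were taken when a mouse reached its critical endpoint, so that the day of collection and the metastatic load cannot be told apart from the treatment.

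Values are log2 normalized counts, relative to 20 housekeeping genes. Estimated raw totals ran from 590856 to 680799. The lowest value of a mouse, 3.15 to 4.01 log2 normalized counts, was shared by 33 to 97 genes, and no adenosine gene lay there in any mouse. Estimated raw counts were 308 to 477 for Nt5e, 600 to 778 for Entpd1, 758 to 1102 for Dpp4, 23 to 82 for Ada and 23 to 39 for Adora2a. The surfactant genes that define lung epithelium were not among the genes analysed here, and Pecam1, an endothelial adhesion molecule, was at 12.50 to 12.74 in the 11 mice. In hIgG1 mouse 8, Cd8a, which marks cytotoxic T cells and thymocytes, stood at 6.96, whereas it was at 4.32 to 4.76 in the other hIgG1 mice and at 3.86 to 4.85 in antiChemR23 mice.

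Nt5e had a higher mean in antiChemR23 lungs, Ada a lower one and Adora2a a higher one, whereas Entpd1 and Dpp4 differed little. None of the 5 passed an adjusted p of 0.05 by limma over the 657 genes that averaged 20 or more normalized counts, and 0 of these 657 genes did (0%). At an unadjusted p under 0.05 there was 1 of the 5, Nt5e, where 9.89% of the tested genes (65 genes) were counted. Of all tested genes, 57.4% (377 genes) had a higher mean in antiChemR23 lungs. The median log2 difference of all tested genes was 0.03 and the median size of a difference 0.12. In this bulk RNA, a change in the number of cells that carry a transcript and a change in the transcript per cell cannot be told apart.

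**Figure D1:**
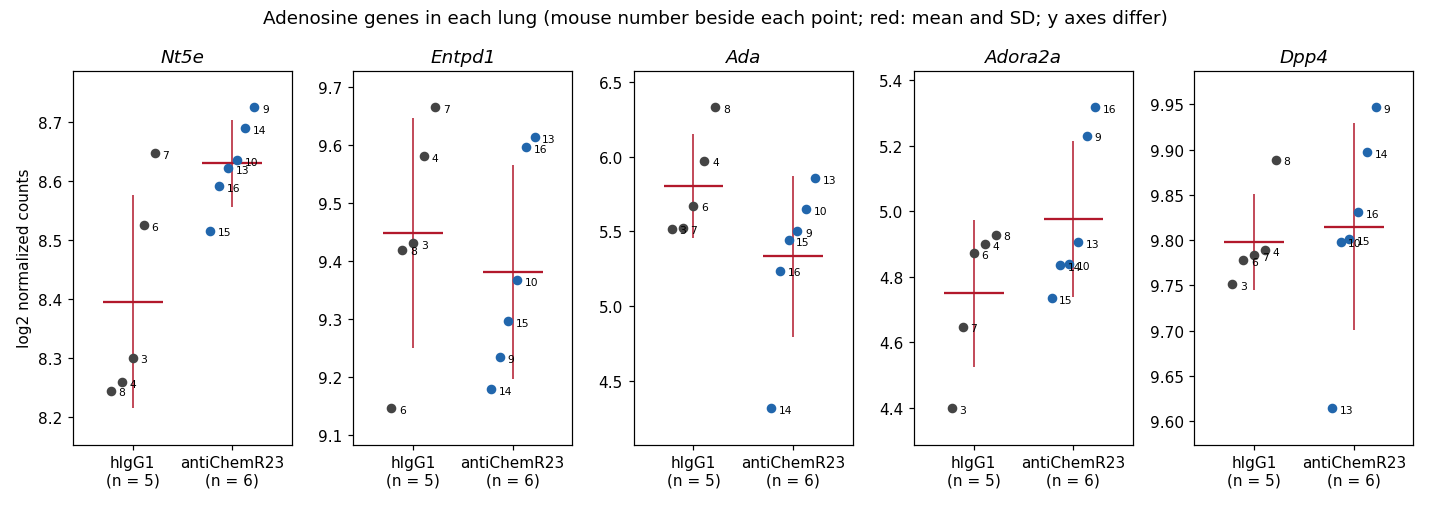
Log2 normalized counts (y axis, a separate scale for each gene) of Nt5e, Entpd1, Ada, Adora2a and Dpp4 in each lung, with hIgG1 (n = 5) and antiChemR23 (n = 6) on the x axis, the mouse number beside each point, and the mean and SD in red. The groups overlap for every gene. For Nt5e, 3 hIgG1 mice lie below all antiChemR23 mice, and for Ada, antiChemR23 mouse 14 lies far below the others at 4.32.

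Entpd1, the first enzyme of the pathway, was at 9.43, 9.58, 9.15, 9.67 and 9.42 log2 normalized counts in hIgG1 mice 3, 4, 6, 7 and 8. It was at 9.23, 9.37, 9.61, 9.18, 9.30 and 9.60 in antiChemR23 mice 9, 10, 13, 14, 15 and 16. The lowest and the highest values were both in hIgG1 mice, and the groups overlapped fully. The means were 9.45 ± 0.20 and 9.38 ± 0.18 (SD, n = 5 and 6), a log2 difference of -0.07 (95% interval -0.30 to 0.17, adjusted p = 0.874 from limma). The interval excludes neither a modest decrease nor a small increase.

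Nt5e, which makes adenosine from AMP, was at 8.30, 8.26, 8.53, 8.65 and 8.25 in hIgG1 mice 3, 4, 6, 7 and 8. In antiChemR23 mice 9, 10, 13, 14, 15 and 16 it was at 8.73, 8.64, 8.62, 8.69, 8.52 and 8.59. Thus hIgG1 mice 3, 4 and 8 lay below every antiChemR23 mouse, whereas hIgG1 mice 6 and 7 lay within the antiChemR23 values, and antiChemR23 mice 9 and 14 lay above every hIgG1 mouse. The means were 8.40 ± 0.18 and 8.63 ± 0.07 (SD, n = 5 and 6), a 1.18-fold higher mean in antiChemR23 mice (log2 difference 0.23, standard error 0.09, 95% interval 0.05 to 0.42, unadjusted p = 0.0176 and adjusted p = 0.483 from limma). All 6 antiChemR23 mice lay above the hIgG1 mean. An exact two-sided Mann-Whitney test, which uses ranks alone, gave p = 0.0823. Nt5e was the gene with rank 20 of the 657 when ordered by p.

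Ada, which removes adenosine, was at 5.52, 5.97, 5.67, 5.52 and 6.33 in hIgG1 mice 3, 4, 6, 7 and 8. It was at 5.50, 5.65, 5.86, 4.32, 5.44 and 5.24 in antiChemR23 mice 9, 10, 13, 14, 15 and 16. Of these, 4 (mice 9, 14, 15 and 16) lay below every hIgG1 mouse, mouse 9 by a small margin and mouse 14 by far, and hIgG1 mice 4 and 8 lay above every antiChemR23 mouse. The means were 5.80 ± 0.35 and 5.33 ± 0.54 (SD, n = 5 and 6), a 1.39-fold lower mean in antiChemR23 mice (log2 difference -0.47, standard error 0.25, 95% interval -1.02 to 0.08, adjusted p = 0.495 from limma).
The highest and the lowest values of Ada came from hIgG1 mouse 8, with an estimated 82 raw counts (95% Poisson interval 65.2 to 102), and antiChemR23 mouse 14, with an estimated 23 (14.6 to 34.5), where the intervals cover counting error only. The log2 difference was -0.27 without antiChemR23 mouse 14, -0.34 without hIgG1 mouse 8 and -0.14 without both, a choice made after the values were seen.
hIgG1 mouse 8 was also the mouse with high T cell genes. Of the 14 genes of a T cell list, 13 were on the panel and 12 were tested. All 12 had a lower mean in antiChemR23 mice (0 with an unadjusted p under 0.05), whereas 57.4% of all tested genes had a higher one. Without hIgG1 mouse 8, which was left out after its values were seen, 8 of the 12 had a higher mean and 4 a lower one. The summed level of the 13 genes on the panel was 537.0 to 1706.3 normalized counts in hIgG1 mice and 570.5 to 1072.8 in antiChemR23 mice. In antiChemR23 mouse 14, the summed neutrophil markers were at the lowest value of all mice, 36542.3 normalized counts, against 74890.4 to 127944.1 in hIgG1 mice. This sum is mostly S100a8, at 33270 normalized counts in mouse 14. The part of T cells and neutrophils in the difference of Ada was not tested.

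Adora2a, the receptor, gave the fewest counts of the 5. It was at 4.40, 4.90, 4.87, 4.65 and 4.93 in hIgG1 mice 3, 4, 6, 7 and 8. In antiChemR23 mice 9, 10, 13, 14, 15 and 16 it was at 5.23, 4.84, 4.91, 4.84, 4.74 and 5.32. Only mice 9 and 16 stood above the hIgG1 mice, and the medians of the groups were both 4.87. The means were 4.75 ± 0.23 and 4.98 ± 0.24 (SD, n = 5 and 6, log2 difference 0.23, 95% interval -0.11 to 0.57, adjusted p = 0.587 from limma). Leaving out hIgG1 mouse 3, the lowest, moved the difference to 0.14.

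Dpp4 was at 9.75, 9.79, 9.78, 9.78 and 9.89 in hIgG1 mice 3, 4, 6, 7 and 8, and at 9.95, 9.80, 9.61, 9.90, 9.80 and 9.83 in antiChemR23 mice 9, 10, 13, 14, 15 and 16. The antiChemR23 values reached both above and below those of hIgG1 mice. The means were 9.80 ± 0.05 and 9.81 ± 0.11 (SD, n = 5 and 6, log2 difference 0.02, 95% interval -0.13 to 0.16, adjusted p = 0.941 from limma). The sign of this small difference turned with quantile normalization (-0.03) and with equal medians (-0.01).

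**Figure D2:**
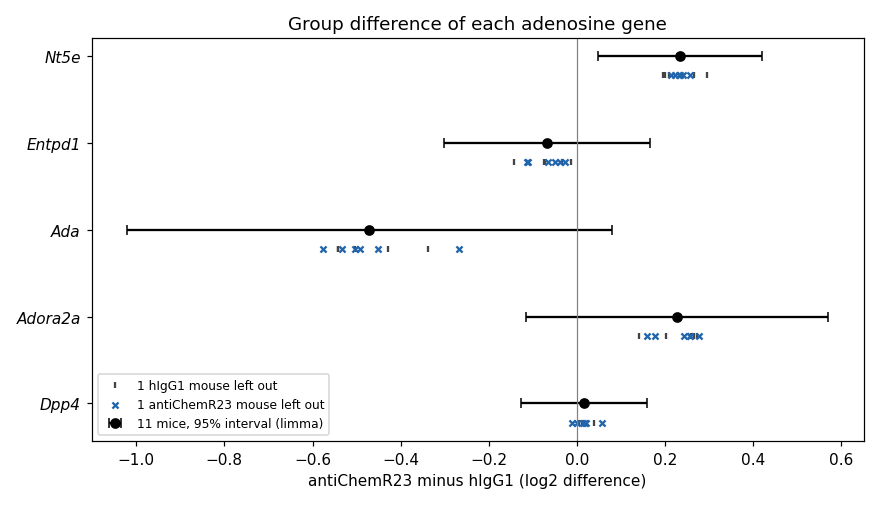
Log2 difference (x axis, antiChemR23 minus hIgG1) of each adenosine gene (y axis) over the 11 mice with the 95% interval from limma (black), and with 1 mouse of either group left out in turn (small marks). The interval of Nt5e alone lies to the right of 0, from 0.05 to 0.42, and the marks of Ada run from -0.58 to -0.27.

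The spread between mice of the same group differed among the 5 genes. The SD within groups was 0.09 log2 units for Dpp4, smaller than that of most tested genes (7.31% had a smaller SD), and 0.13 for Nt5e (20.5%). It was 0.19 for Entpd1 (41.7%), 0.23 for Adora2a (54.0%) and 0.46 for Ada (91.0%), beside a median of 0.22 over the 657 tested genes. Counting alone, taken from the estimated raw counts, would give an SD of 0.27 for Adora2a, so that its spread between mice was no larger than the counting error. For Ada the spread was 2.16 times the counting error, for Nt5e 1.76 times, for Dpp4 1.92 times and for Entpd1 3.47 times. Of the 5 genes, Entpd1 had the largest spread relative to counting.

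**Figure D3:**
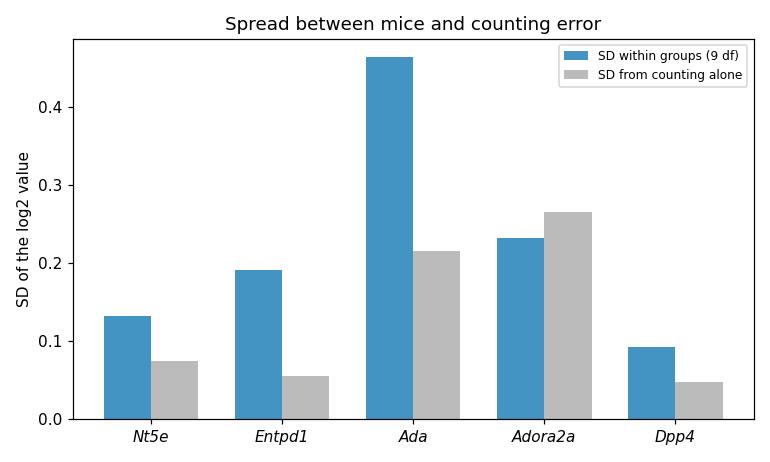
SD of the log2 value (y axis) within groups (blue, pooled over hIgG1 and antiChemR23) and from counting alone (grey) for each gene (x axis). Ada has the widest spread, 0.46, and Adora2a is the gene whose spread, 0.23, is below its counting error, 0.27.

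Over the 11 mice, the 5 genes did not vary together in a way that passed a test. Of the 10 pairs, 6 had a negative and 4 a positive Pearson r, from -0.588 to 0.400, and 0 passed an adjusted p of 0.05 over the 10 pairs by a two-sided permutation test, while 1 had an unadjusted p under 0.05. That pair was Nt5e with Ada, the enzymes that make and remove adenosine (r = -0.588, permutation p = 0.0493, adjusted p = 0.493; Spearman rho = -0.536, permutation p = 0.0946, adjusted p = 0.536). Without the 2 mice with the most extreme Nt5e, hIgG1 mice 4 and 8, r was -0.258. Leaving out extremes of Nt5e narrows its range and by itself shrinks r, so this value cannot show whether the relation rested on these mice. With each group centered on its own mean r was -0.396, and in the 6 antiChemR23 mice alone it was -0.278. With single mice left out r ran from -0.656 to -0.433, and with quantile normalization it was -0.683.
Entpd1 and Dpp4 also ran in opposite directions (r = -0.501, permutation p = 0.116, adjusted p = 0.581; rho = -0.436, permutation p = 0.179, adjusted p = 0.536). This r was -0.738 in the 6 antiChemR23 mice, -0.493 with groups centered and -0.666 without hIgG1 mice 6 and 7, the most extreme in Entpd1. It was -0.223 with quantile normalization, and ran from -0.634 to -0.370 (without antiChemR23 mouse 13) with single mice left out. For Adora2a with Dpp4, r was 0.400 (permutation p = 0.217, adjusted p = 0.588) and rho 0.409 (permutation p = 0.215, adjusted p = 0.536), with an r of 0.348 in antiChemR23 mice, 0.404 with groups centered and 0.414 without hIgG1 mouse 3 and antiChemR23 mouse 16. This r depended on the scaling and on single mice, at 0.164 with quantile normalization, 0.182 with equal medians, 0.202 without antiChemR23 mouse 9 and 0.631 without antiChemR23 mouse 13.
Within a mouse, Nt5e minus Ada was 2.78, 2.29, 2.85, 3.13 and 1.91 log2 units in hIgG1 mice 3, 4, 6, 7 and 8. It was 3.23, 2.99, 2.77, 4.37, 3.08 and 3.36 in antiChemR23 mice 9, 10, 13, 14, 15 and 16. The means were 2.59 ± 0.49 and 3.30 ± 0.57 (SD, n = 5 and 6), and the groups overlapped. This combination was chosen after the values were seen and was not tested, and as probes differ in efficiency only its change between mice can be read.

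Next, each gene was set beside the scores of 11 marker lists, the mean log2 values of genes that mark a cell type, as a description of 55 relations over the same 11 mice without a test. Entpd1 ran in the same direction as the neutrophil score (r = 0.668, rho = 0.673). With groups centered r was 0.654, in the antiChemR23 mice it was 0.756, and leaving out the 2 mice with the most extreme scores gave 0.510. The 3 genes whose values were most like those of Entpd1, out of 656, were Il1rap, the accessory chain of the IL-1 receptor (r = 0.833), Cxcr1, a chemokine receptor of neutrophils (r = 0.826), and Il6ra, the IL-6 receptor chain (r = 0.816). The highest r was of like size for Ada (0.838), Dpp4 (0.803) and Adora2a (0.814), although the spread of Adora2a was no larger than its counting error. How high the best r of 656 genes would be by chance was not tested. Of the 10 listed neutrophil genes, 8 were on the panel and tested. In antiChemR23 mice 7 lay below and 1 above the hIgG1 mean (0 with an unadjusted p under 0.05), where 57.4% of all tested genes lay above. Without antiChemR23 mouse 14, 5 of the neutrophil genes lay below and 3 above. The summed level of the 8 neutrophil genes was 74890.4 to 127944.1 normalized counts in hIgG1 mice and 36542.3 to 162437.8 in antiChemR23 mice. It is mostly S100a8, at 33270 in antiChemR23 mouse 14 and 152100 in antiChemR23 mouse 16.

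**Figure D4:**
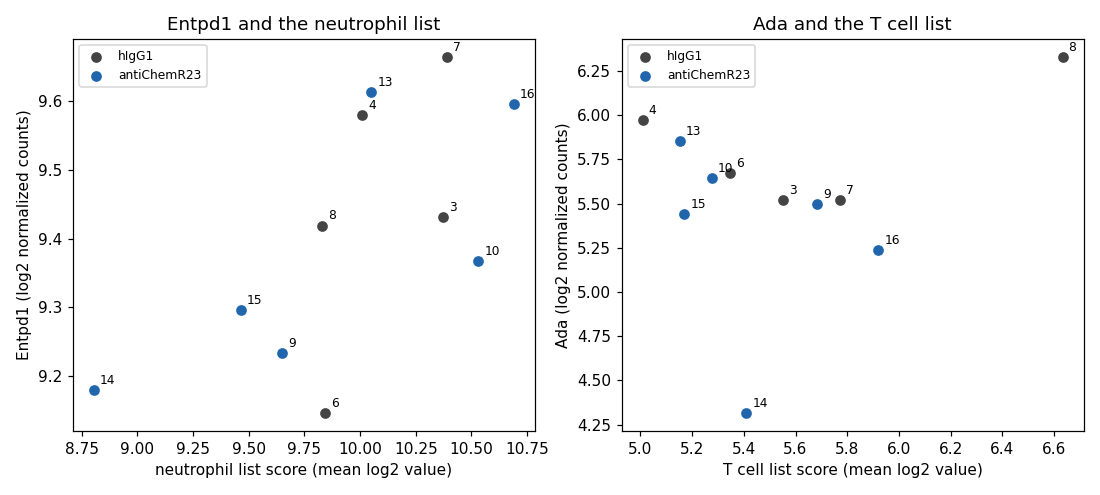
Left, Entpd1 (y axis, log2 normalized counts) against the neutrophil list score (x axis, mean log2 value of 8 genes). Right, Ada against the T cell list score (12 genes). Each point is 1 lung with its mouse number, hIgG1 in dark grey and antiChemR23 in blue. Entpd1 is low in antiChemR23 mouse 14, which has the lowest neutrophil score. It is lowest in hIgG1 mouse 6 (9.15), whose score of 9.84 lies above those of antiChemR23 mice 9 and 15. In the Ada plot hIgG1 mouse 8 is at the top right, and rho over the 11 mice is -0.209.

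Dpp4, known on T cells, NK cells and epithelium, followed the list of NK and cytotoxic genes (r = 0.691, rho = 0.618, 0.688 with groups centered, 0.434 without the 2 most extreme mice). It also followed the stromal list (r = 0.568, rho = 0.736, 0.578 with groups centered, 0.670 without the 2 most extreme mice). Of the 9 stromal genes, 7 were tested, 6 above the hIgG1 mean in antiChemR23 mice and 0 with an unadjusted p under 0.05. Of all tested genes, 57.4% lay above it. The summed stromal level was 11939.5 to 14693.2 normalized counts in hIgG1 mice and 13538.8 to 15557.2 in antiChemR23 mice. Dpp4 was most like Bmi1, a Polycomb protein (r = 0.803), Cd1d1, which presents lipids to NKT cells (r = 0.795), and Irf5, an interferon regulatory factor (r = 0.758). Of the 9 NK and cytotoxic genes, all on the panel, 8 were tested, 6 above the hIgG1 mean (57.4% of all tested genes) and 0 with an unadjusted p under 0.05. The summed level of all 9 was 481.3 to 659.7 normalized counts in hIgG1 mice and 494.3 to 751.1 in antiChemR23 mice.
Nt5e followed the B cell list over the 11 mice (r = 0.617, rho = 0.60), but r was 0.299 with groups centered. With the NK and cytotoxic list it had r = 0.568 and rho = 0.618, and 0.649 with groups centered. Without the 2 mice of most extreme score, r was 0.334 for the B cell list and 0.337 for the NK and cytotoxic list. Of the 10 B cell genes, all on the panel, 8 were tested, and 7 lay above the hIgG1 mean in antiChemR23 mice, where 57.4% of all tested genes did. Of these 7, 4 had an unadjusted p under 0.05 and 0 an adjusted one, beside 9.89% of all tested genes with an unadjusted p under 0.05 in either direction. The summed level of all 10 was 523.6 to 691.0 in hIgG1 mice and 601.5 to 975.4 in antiChemR23 mice. Some mouse B cells are known to carry CD73, and the part of B cells in the values of Nt5e was not tested. Among the genes most like Nt5e were Tgfbr1, a receptor of TGF-beta (r = 0.802), and H2-M3, which presents formylated peptides (r = 0.796).
Ada ran opposite to the B cell list (r = -0.575, rho = -0.727) and to the stromal list (r = -0.573, rho = -0.582). With groups centered these r were -0.388 and -0.475, and without the 2 mice of most extreme score -0.717 and -0.0983. Ada also ran opposite to the NK and cytotoxic list (r = -0.52, rho = -0.509) and to the dendritic cell list (r = -0.473, rho = -0.736). For these lists r was -0.514 and -0.346 with groups centered, and -0.336 and -0.134 without the 2 mice of most extreme score. With the T cell list its r was 0.229 and its rho -0.209. hIgG1 mouse 8 was the highest in both, and without the 2 mice of most extreme score r was -0.297. Ada was most like Lyve1, a hyaluronan receptor of lymphatic vessels and some macrophages (r = 0.838), Ifit1, an interferon-stimulated gene (r = 0.832), and Thbd, the endothelial thrombomodulin (r = 0.815).
For Adora2a, whose spread between mice was close to the counting error, the largest r in size over the 11 mice was 0.484, with the endothelial list. Without the 2 mice of most extreme score it was 0.239. Subsets of mice gave other lists. With the T cell list r was 0.924 in the antiChemR23 mice, but 0.227 over the 11 mice and -0.11 without the 2 mice of most extreme score. With the stromal list r was 0.368 over the 11 mice and 0.70 without the 2 mice of most extreme score. Among the genes most like it were Hprt (r = 0.814) and Itgb1, the integrin beta 1 chain (r = 0.790). Hprt is 1 of the 20 housekeeping genes to which all values are relative, and rho of Adora2a with Hprt was 0.464.

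**Figure D5:**
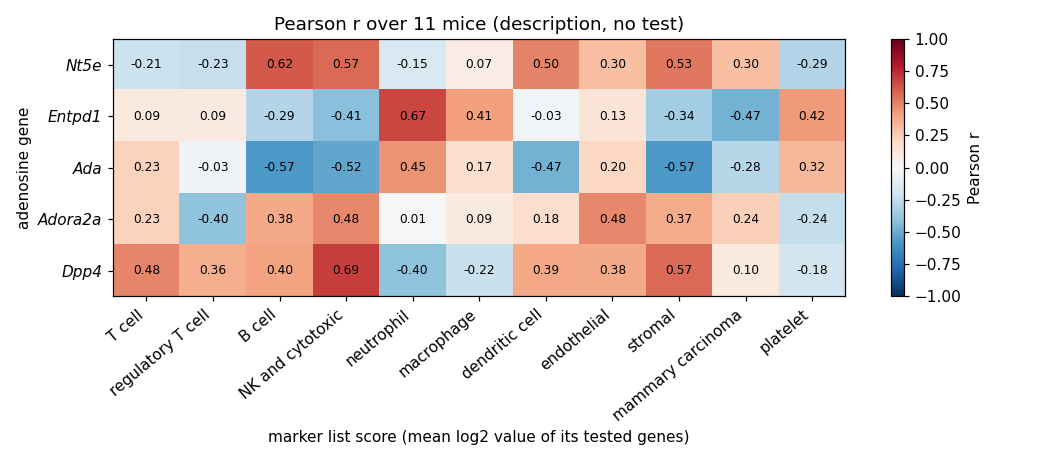
Pearson r over the 11 mice (color and number) of each adenosine gene (rows) with the score of each of 11 marker lists (columns). The largest values are 0.69 for Dpp4 with NK and cytotoxic genes, 0.67 for Entpd1 with neutrophil genes and 0.62 for Nt5e with B cell genes, and no test was made.

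Other genes of purine handling gave no passing difference. Of a list of 43 genes, 8 were on the panel, the 5 above and Hprt, Cd38 and Bst1. Of the 8, 4 had a higher and 4 a lower mean in antiChemR23 mice, where 57.4% of all tested genes had a higher one. The 1 gene at an unadjusted p under 0.05 was Nt5e, 1 of the 5 above, and the median log2 difference of the 8 was -0.01. The A1, A2B and A3 receptors, adenosine kinase and the nucleoside transporters were not analysed here. Hprt, which returns hypoxanthine to the purine pool, was at 10.11 ± 0.07 in hIgG1 mice and 10.22 ± 0.06 in antiChemR23 lungs (SD, n = 5 and 6; limma, adjusted p = 0.495). Cd38, an ectoenzyme that breaks down NAD and can feed AMP to CD73, was at 8.43 ± 0.35 and 8.35 ± 0.12 (adjusted p = 0.879 from limma). Bst1, a related ectoenzyme of myeloid cells, was at 9.40 ± 0.22 and 9.36 ± 0.36 (adjusted p = 0.951 from limma).
Among 9 listed regulators of the ectonucleotidases, 7 were tested. In antiChemR23 mice 5 lay above and 2 below the hIgG1 mean, where 57.4% of all tested genes lay above, and 0 had an unadjusted p under 0.05. Regulators that raise and that lower these enzymes were not counted apart. Hif1a, the hypoxia factor known to induce CD73, was at 10.34 ± 0.07 and 10.44 ± 0.08 (SD, n = 5 and 6, log2 difference 0.10, adjusted p = 0.495 by limma). The log2 differences of Nfkb1, an NF-kappaB subunit, and of the T cell factor Runx3 were 0.07 and 0.20.
Of 16 genes listed as targets of cyclic AMP or effectors of the A2A receptor, 11 were on the panel and only 4 were strong enough to be tested. Of these 4, Creb5, Tnf, Creb1 and Vegfa, 1 had a higher mean (57.4% of all tested genes) and 0 an unadjusted p under 0.05. The list sets no direction for each gene, so that this count cannot be read as higher or lower activity of the receptor. The log2 differences were -0.17 for Creb5, a transcription factor, 0.07 for the cytokine Tnf and -0.005 for Creb1, which binds cyclic AMP response elements. Ifng, Il10, Il6, Il12b, Ctla4, Pdcd1 and Lag3 were below the mean of 20 normalized counts.
Of 7 chemokines known, mostly from human proteins, as substrates of CD26, all were tested. In antiChemR23 mice 5 lay above and 2 below the hIgG1 mean, where 57.4% of all tested genes lay above. The median log2 difference was 0.13, and 0 had an unadjusted p under 0.05. Ccl11, an eosinophil chemoattractant, was at 5.81 ± 0.30 and 6.20 ± 0.52 (SD, n = 5 and 6, adjusted p = 0.510 by limma). The log2 differences were 0.13 (standard error 0.09) for Cxcl12, which retains leukocytes in tissues, and 0.30 (standard error 0.27) for Ccl22, a ligand of CCR4.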

How the data were processed

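RNA of 11 lungs was counted on the nCounter Sprint. Values are as deposited, log2 counts that the authors had normalized in nSolver (settings not given in the sources used here). For differential expression, the submitters' processing notes name DESeq2, but no count model was fitted here to log2 values. The mean of 20 housekeeping genes was 9.01 in every mouse. Raw counts were estimated with a step per mouse (0.865 to 1.11 normalized counts), of which all normalized counts under 60, but for the lowest, were whole multiples within 0.1 of a count. Groups were compared in limma 3.58.1 (R 4.3.3, moderated by eBayes with a mean trend) on 657 genes averaging 20 or more normalized counts, with Benjamini-Hochberg adjustment over these. Correlations used 100000 permutations (numpy 2.4.6), or all of them for 6 mice.

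The members and gene lists were chosen with earlier results of these data known. All 5 members are given in full, with the 3 genes of highest Pearson r to each (some are not reported here) and, by smallest p, up to 6 genes of the purine list and 3 of each pathway list. Marker lists are given by counts and summed levels, and 11 were set beside the members. Each mouse is a separate animal, and the sources used here give no batch. Alternatives were other scalings, filters and tests, and leaving out each mouse.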

Additional observations from a re-analysis of the deposited data

Results flagged for a closer look

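Among 16 groups of values tested (the 5 adenosine genes and Hprt, Cd38 and Bst1, in each treatment group), 1 mouse stood farther from its group than Dixon's limit allows, where chance gives about 1 in 20 groups. In hIgG1 mouse 8 the log2 level of Dpp4 was 9.89, whereas hIgG1 mice 3, 4, 6 and 7 ranged from 9.75 to 9.79. That range is narrow, as counting alone would give Dpp4 an SD of 0.048. In antiChemR23 mice 9 and 14 Dpp4 was higher, at 9.95 and 9.90. In hIgG1 mouse 8 Cd8a was at 6.96 and Ada at 6.33, the highest values of the 11 mice. Without it, the log2 difference of Dpp4 was 0.04 in place of 0.02.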

How the results depend on the processing

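Nt5e, Ada, Adora2a and Entpd1 kept the direction of their difference in each alternative run, and none passed an adjusted p of 0.05. Nt5e ran from 0.18 to 0.30, Ada from -0.58 to -0.14, Adora2a from 0.14 to 0.30 and Entpd1 from -0.14 to -0.01. Dpp4 turned with quantile normalization (-0.032) and equal medians (-0.0087), and ran from -0.0098 (without antiChemR23 mouse 9) to 0.057 when single mice were left out. Of all tested genes, 0 had an adjusted p under 0.05, or 1 with quantile normalization, and leaving out single mice gave 0 to 3 (3 without antiChemR23 mouse 10). The 65 genes with an unadjusted p under 0.05 were 41 by the exact Mann-Whitney test and 38 to 80 with single mice left out (43 without hIgG1 mouse 3, 38 without antiChemR23 mouse 9). These 65 were 47 higher and 18 lower in antiChemR23 mice, against 26 and 33 after quantile normalization and 22 and 35 with equal medians. The cause was not tested. A minimum mean of 50 left Ada and Adora2a without a value. The correlations of the adenosine genes had 0 of 10 pairs past that threshold, and so under each alternative. No paired analysis was possible because no mouse number occurs in both groups. Counting limits the precision of Adora2a, at 23 to 39 estimated raw counts.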
